A study of Mus musculus with 3 samples.

Results

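The Cdx family consists of Cdx1, Cdx2 and Cdx4, which encode the caudal-type homeodomain transcription factors of the mouse. These 3 genes, of 32285 genes in the deposited tables, were followed across the cell states of blastoids, which are blastocyst-like structures grown from stem cells. The genes were chosen as a family with their pattern in these data known, and the cell states were divided by measured levels of other genes in the same cells. The values below therefore describe the cells, and no p-value was computed.

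Cdx proteins bind DNA through a homeodomain and switch genes on or off along the body axis. In the blastocyst Cdx2 marks the trophectoderm, the outer layer that gives rise to the placenta, where it opposes the pluripotency factor Pou5f1. After implantation Wnt, Fgf and retinoic acid signals switch on all Cdx genes in the posterior primitive streak, where they act upstream of the Hox genes. Cdx1 and Cdx2 also serve the intestine, and Cdx4 is known from the posterior embryo and from blood precursors.

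All samples came from E14 mouse embryonic stem cells kept with 10 µM T0901317, a small-molecule agonist of the liver X receptors, and 1000 U/mL leukemia inhibitory factor. On the first day 5 cells per microwell were held with 12.5 ng/mL rhFGF4, 0.5 µg/mL heparin, 3 µM CHIR99021 (a GSK3 inhibitor that raises Wnt signalling) and 2 µM Y-27632 (a kinase inhibitor that helps dissociated stem cells survive). The complete medium then kept rhFGF4, heparin and CHIR99021 at those doses and added 5 ng/mL BMP4 and 0.5 µM A83-01, which blocks TGF-beta and Nodal receptors. All groups thus received the activating Wnt and Fgf agents and BMP4. Blastoids were picked by hand on day 5 and digested for 30 min. The 3 groups, titled NrESC_Type_I, NrESC_Type_II and NrESC_Type_III and here called Type I, Type II and Type III, had 1 library each of pooled blastoids. What distinguishes the types is not given in the labels, so a difference between types has no replicate check, and type and library cannot be told apart.

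Transcripts were counted as unique molecular identifiers (UMIs), each standing for 1 captured RNA molecule. Cells were taken as barcodes holding 10000 or more UMIs, of which no more than 20% came from mitochondrial genes. This left 1405, 1992 and 272 cells of 6813, 9265 and 2310 barcodes in Types I, II and III. Their median depths were 52224, 41491 and 71540 UMIs. Libraries shared 151 to 209 barcodes in each pair, of which 1 was deep, between Types I and II, and no Cdx2 mean named below moved by more than its spread without it. States were set in a fixed order: streak-like cells with UMIs of both T and Fgf8, visceral endoderm with Ttr, Rbp4, Apoa1 and Apoa2 summing to at least 1000 CPM (the UMIs of a gene scaled to a fixed total, so that 1 UMI of 10000 is 100 CPM), early primitive endoderm (early PrE) with Gata6, Sox17 and Gata4 at 100 CPM or more, trophectoderm (TE) with Krt8, Krt18 and Krt19 at 800 CPM or more, and epiblast with Pou5f1 at 150 CPM or more. In Type I these states held 52, 438, 270, 203 and 336 cells, in Type II 110, 563, 372, 264 and 550, and in Type III 6, 19, 45, 72 and 118. A further 106, 133 and 12 cells met no rule. Marker lists that the rules did not use summed highest in the state they name among the 5 states of each of Types I and II, with TE markers at 736 and 836 CPM in TE cells against at most 138 CPM in any other state. The rules overlap: 431 of 438 and 558 of 563 visceral endoderm cells also met another rule, mostly that of early PrE or TE. No doublet caller was run.

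Each cell was thinned to 10000 UMIs before states were compared, so that a share of cells with a UMI does not depend on depth. Shares carry exact 95% binomial intervals and levels in CPM exact 95% Poisson intervals, and both cover counting error only. Where no cell had a UMI, the share that this still allows is given as 3 cells of the total. Means ± SD are over the libraries with at least 20 cells of the state, which for streak-like and visceral endoderm cells are Types I and II. Whether more cells with the RNA or more RNA per cell lies behind a level is given where the counts per cell show it.

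Cdx2 lies on chromosome 5 (147300805 to 147307270, minus strand) and Cdx4 on chromosome X (103321398 to 103330592, plus strand), in build GRCm38, also called mm10. The annotation gives each member 3 exons and no overlapping gene. The last 500 bases of each transcript, where these 3' libraries read, held 471 windows of 30 bases, and none was found in another annotated gene or another member, so reads of the members can be told apart.

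The bases just before the transcript start of Cdx2 and Cdx4 are shown because many cells with Cdx4 also had Cdx2, and because both hold the octamer ATGCAAAT, the letters bound by POU factors such as Pou5f1. Sequences are from RefSeq's promoter table on GRCm38.p6, in which these 2 of 3 members were used, each on its gene's strand, with the octamer in capitals.
Cdx2, chr5:147307271-147307499, minus strand: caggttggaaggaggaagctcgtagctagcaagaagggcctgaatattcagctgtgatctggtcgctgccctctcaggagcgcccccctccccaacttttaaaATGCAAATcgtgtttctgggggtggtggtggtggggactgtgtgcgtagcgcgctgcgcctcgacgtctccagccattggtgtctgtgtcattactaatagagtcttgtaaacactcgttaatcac
Cdx4, chrX:103321148-103321397, plus strand: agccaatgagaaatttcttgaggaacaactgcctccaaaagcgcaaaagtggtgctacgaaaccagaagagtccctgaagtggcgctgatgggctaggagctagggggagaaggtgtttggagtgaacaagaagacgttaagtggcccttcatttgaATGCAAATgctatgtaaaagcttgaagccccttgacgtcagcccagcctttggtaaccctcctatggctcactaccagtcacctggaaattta
In Cdx2 the octamer spans bases -126 to -119 from the start, and in Cdx4 bases -93 to -86. It was picked out after the sequences had been read. On either strand it occurs in 1.75% of 27025 mouse promoter windows of 300 bases. CCAAT, the core of the CCAAT box, was the other match in both, at -51 to -47 on the opposite strand in Cdx2 and at -248 to -244 in Cdx4, and is found in 37.9% of promoters. Neither stretch shown held CTTTGA, a core of the sites bound by TCF/LEF factors of the Wnt pathway, on either strand, and 16.2% of promoters do. The core of CDX sites searched for, written TTTATG, was likewise in neither stretch, while 12.15% of promoters hold it on 1 strand or the other. For the GATA factors, which act in endoderm and trophoblast, the letters AGATAA were searched, with no match here and a match in 11.4% of promoters. The last motif was the TATA box, which places the start of transcription in some genes and was searched as TATAAA, again without a match here and with 14.2% of promoters holding it. A match is a description of the letters and not a binding site. The stretches searched here, of 229 bases in Cdx2 and 250 in Cdx4, are shorter than the windows of 300 bases behind these rates. The rest of the windows of Cdx2 and Cdx4 was not searched, so the rates are not like for like.

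Cdx2 was most often detected in streak-like cells. A Cdx2 UMI was found in 16 of 52 streak-like cells of Type I (30.8%, interval 18.7% to 45.1%) and in 27 of 110 of Type II (24.5%, 16.8% to 33.7%), and in 1 of only 6 of Type III. Visceral endoderm came next, with 82 of 438 cells in Type I (18.7%, 15.2% to 22.7%) and 73 of 563 in Type II (12.97%, 10.3% to 16.0%), while none of 19 cells in Type III had one, which allows up to 15.8%. The order of these states was the same in Types I and II, but their intervals met in Type I.

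**Figure D1:**
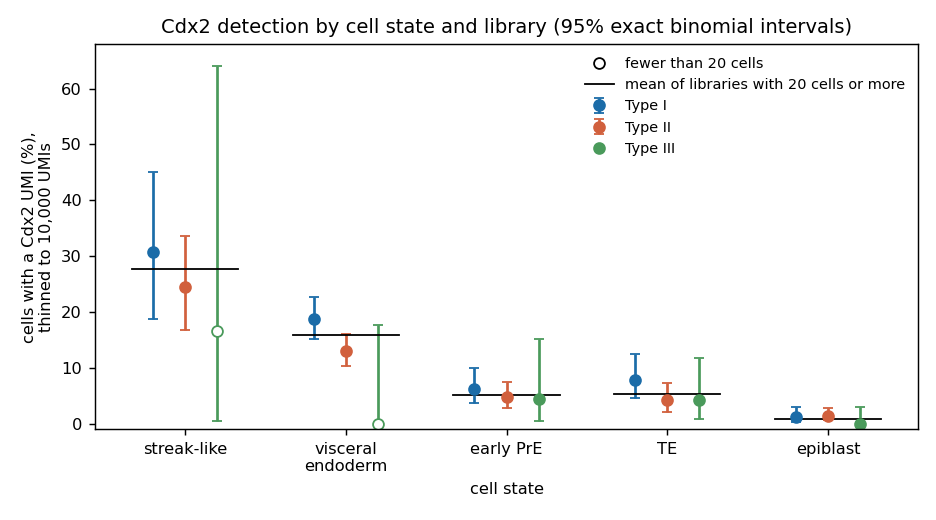
Share of cells with a Cdx2 UMI after thinning, on the y axis, in each of the 5 states on the x axis, with 1 point per library, exact 95% binomial bars and a line at the mean over libraries with at least 20 cells. Streak-like cells average 27.7%, visceral endoderm 15.8%, TE 5.405%, early PrE 5.19% and epiblast 0.882%.

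TE cells, the lineage Cdx2 is known for, had it less often than visceral endoderm in Types I and II: 16 of 203 cells in Type I (7.88%, 4.57% to 12.5%), 11 of 264 in Type II (4.17%, 2.10% to 7.33%) and 3 of 72 in Type III (4.17%, 0.868% to 11.7%). Early PrE cells were close to them at 6.30%, 4.84% and 4.44%. Epiblast cells, used here as the low reference, had Cdx2 in 4 of 336 (1.19%), 8 of 550 (1.45%) and 0 of 118, which allows up to 2.54%. Their median depths were 56313, 46740 and 59916 UMIs against 48980, 41852 and 81527 in TE cells. Whether these epiblast reads are background was not tested. At full depth 1 epiblast cell in each of Types I and II held 5 Cdx2 UMIs, 18.5% and 13.9% of the state's Cdx2. The TE share was above the epiblast share with separate intervals in Type I, while in Types II and III the intervals overlapped.

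Over libraries the shares were 27.7% ± 4.40 in streak-like cells and 15.8% ± 4.07 in visceral endoderm (SD, n = 2). They were 5.405% ± 2.145 in TE, 5.19% ± 0.976 in early PrE and 0.882% ± 0.775 in epiblast cells (SD, n = 3). TE and early PrE do not differ beyond their spread, and their order turned with the processing. The 3 upper steps (streak-like, visceral endoderm, then TE and early PrE together) and the lowest place of the epiblast did not change order under any setting that gave all 5 states.

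As a level, Cdx2 was 42.3 CPM in streak-like cells of Type I and 52.7 CPM of Type II, against 21.7 and 14.6 CPM in visceral endoderm. TE cells held 13.3, 7.58 and 8.33 CPM in Types I, II and III, early PrE 7.41, 5.38 and 4.44 CPM, and epiblast 1.19, 1.45 and 0 CPM. The streak-like level was thus 1.95 and 3.62 times that of visceral endoderm in Types I and II, and 3.18 times that of TE cells in Type I. TE cells were 1.63 and 1.92 times lower than visceral endoderm by level, a smaller gap than that of the shares.

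The 2 scales differ because the UMIs were spread in different ways over cells. Counting all UMIs of a cell, visceral endoderm had many cells with few: 222 of 438 cells in Type I and 195 of 563 in Type II were positive, 46.0% and 59.5% of them with a single UMI, and cells with 5 or more UMIs held 27.5% and 16.5% of the state's Cdx2. TE cells showed the other pattern. Only 27 of 203, 21 of 264 and 6 of 72 were positive, but the 9, 6 and 1 cells with 5 or more UMIs held 73.0%, 72.9% and 70% of the TE Cdx2, and the highest cells had 24, 21 and 21 UMIs. Streak-like cells were both frequent and high, with 27 of 52 and 50 of 110 positive and 56.5% and 77.6% of UMIs in cells with 5 or more.

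**Figure D2:**
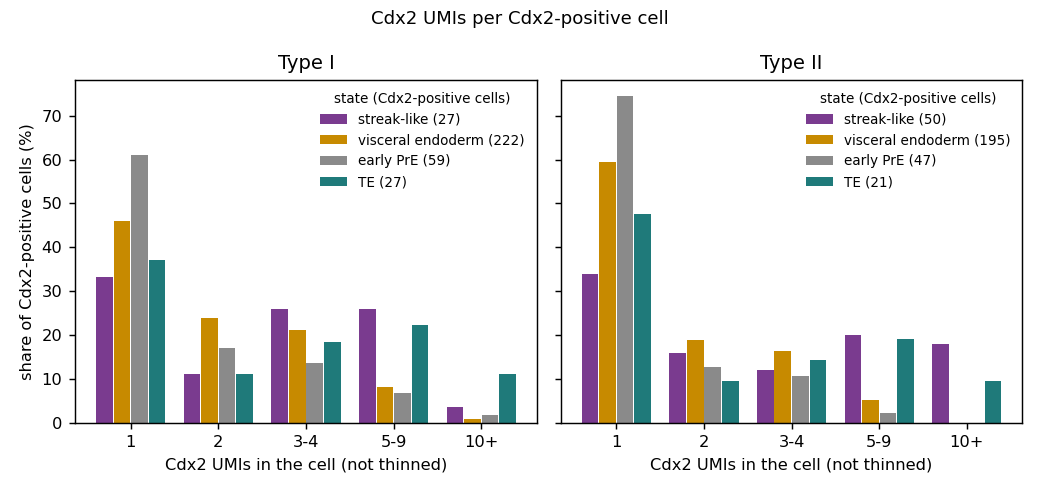
Share of the Cdx2-positive cells of a state (y axis, percent) that hold 1, 2, 3 to 4, 5 to 9 or 10 and more Cdx2 UMIs (x axis, not thinned), in Type I and Type II, with the number of positive cells in the key. Visceral endoderm and early PrE pile up at 1 UMI, while 33.3% and 28.6% of positive TE cells and 29.6% and 38% of positive streak-like cells hold 5 or more.

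Because visceral endoderm is a large state, it held the largest part of all Cdx2 UMIs among the states in Types I and II, 51.0% and 40.2%, with 31.2% and 28.3% of the cells. TE held 12.7% and 9.725% there and streak-like cells 9.265% and 27.6%, the latter from 3.70% and 5.52% of the cells. In Type III, with 19 visceral endoderm cells, TE held 37.0% of 81 UMIs, of which 21 came from 1 cell. Over all deep cells Cdx2 was 14.4, 10.8 and 3.68 CPM in Types I, II and III.

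Within the endoderm, Cdx2 was also set beside the carrier genes that define the visceral endoderm rule (Ttr, Rbp4, Apoa1 and Apoa2, which encode secreted carriers of thyroid hormone, retinol and lipid). Early PrE and visceral endoderm cells were pooled and divided by the summed carrier level. In Type I the Cdx2 share was 4.52% of 155 cells under 250 CPM (1.84% to 9.08%), 13.8% of 116 cells at 1000 to 2000 CPM and 22.9% of 140 cells at 2000 to 4000 CPM (16.2% to 30.7%). In Type II it was 4.18% of 239 cells under 250 CPM (2.02% to 7.56%), 4.83% of 145 cells at 1000 to 2000 CPM and 18.7% of 139 cells at 4000 to 8000 CPM (12.6% to 26.2%). Above 8000 CPM it was 17.3% and 15.65%, so the share did not go on rising. This division was chosen after the shares by state were seen. By the rule, all cells under 1000 CPM are early PrE and all others visceral endoderm, so a rise across 1000 CPM repeats the difference between these states. Within visceral endoderm, the interval at 1000 to 2000 CPM was 8.09% to 21.4% in Type I, which overlaps that at 2000 to 4000 CPM. In Type II it was 1.96% to 9.69%, below that at 4000 to 8000 CPM.

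**Figure D3:**
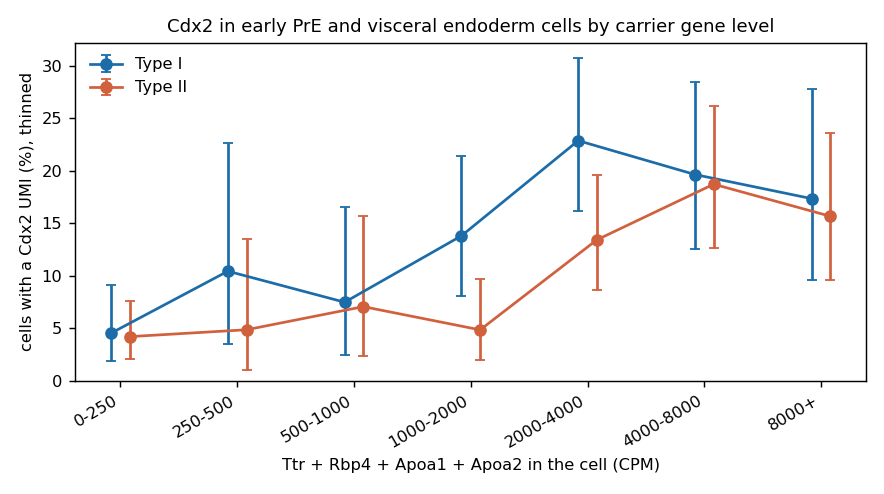
Share of early PrE and visceral endoderm cells with a Cdx2 UMI after thinning (y axis, percent, exact 95% binomial bars) by the summed CPM of Ttr, Rbp4, Apoa1 and Apoa2 (x axis, classes of increasing width) in Types I and II. Shares stay at or under 10.4% below 1000 CPM in both libraries and reach 22.9% in Type I and 18.7% in Type II.

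Near the limits of the rules, summed over libraries, Cdx2 was found in 10.7% of 319 cells that missed the streak rule with UMIs of only 1 of T and Fgf8, and in 19.3% of 57 cells that met it with 1 UMI of the lower of both genes. It was found in 3.896% of 77 cells just under the carrier limit and 8.11% of 74 just above it, in 11.1% of 45 and 11.5% of 26 cells beside the limit of Gata6, Sox17 and Gata4, in 4.17% of 48 and 10.5% of 38 cells beside the keratin limit, and in 2.22% of 45 and 1.96% of 51 cells beside the Pou5f1 limit. Beside the UMI minimum, at a thinning depth of 8000, the shares were 6.39% of 219 cells and 6.59% of 167. Cdx1 and Cdx4 were found in at most 3 and 4 cells on any side of these limits.

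Cdx1, on chromosome 18 (61018862 to 61036199, minus strand), was rare in every state, and its pattern over the states was unlike that of Cdx2. After thinning it was found in 8 of 336, 6 of 550 and 2 of 118 epiblast cells (2.38%, 1.09% and 1.695%), which gives 1.72% ± 0.6455 (SD, n = 3). Streak-like cells had it in 2 of 52 and 2 of 110 (3.85% and 1.82%), and visceral endoderm in 1 of 438 and 0 of 563, the last of which allows up to 0.533%. In Type III it was found in 1 of only 19 visceral endoderm cells. At these shares the depth is the limit, so all UMIs of a cell were also counted.

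At full depth Cdx1 was found in 24 of 336 epiblast cells of Type I (7.14%, interval 4.63% to 10.4%), 22 of 550 of Type II (4%, 2.52% to 5.99%) and 9 of 118 of Type III (7.63%, 3.55% to 14.0%). Visceral endoderm had it in 1 of 438 and 3 of 563 cells (0.228%, 0.00578% to 1.27%, and 0.533%, 0.110% to 1.55%), at like depth in Types I and II (54152 and 40808 UMIs at the median against 56313 and 46740 in epiblast cells), and these intervals lie below those of the epiblast. In Type III 1 of 19 visceral endoderm cells had Cdx1, so this difference was not seen there, in a group too small to compare. Streak-like cells stood at 7 of 52 and 7 of 110 (13.5%, interval 5.59% to 25.8%, and 6.36%, 2.60% to 12.7%), with intervals that overlap those of the epiblast. TE cells had it in 4 of 203, 12 of 264 and 2 of 72. The 12 cells of Type II held 25 of its UMIs with up to 9 in 1 cell, the most Cdx1 seen in any deep cell. Epiblast cells held 61.5%, 40.7% and 66.7% of the Cdx1 UMIs of Types I, II and III, which numbered 52, 81 and 15.

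Cdx4 was the rarest member, and most of its UMIs in Types I and II lay in cells that also had Cdx2. At full depth 11, 16 and 2 cells of Types I, II and III had a Cdx4 UMI, with 32, 31 and 2 UMIs. In Type I, 26 of the 32 UMIs lay in 6 cells that met no state rule (14 of them in 1 cell), and in Type II 19 of the 31 UMIs lay in 6 streak-like cells with up to 9 UMIs in a cell. After thinning 3, 7 and 0 cells remained. Among streak-like cells Cdx4 was found after thinning in 4 of 110 of Type II (3.64%, 1.00% to 9.05%) and in none of 52 of Type I, which allows up to 5.77%. None of the 438 and 563 visceral endoderm cells had it after thinning, which allows up to 0.685% and 0.533%.

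**Figure D4:**
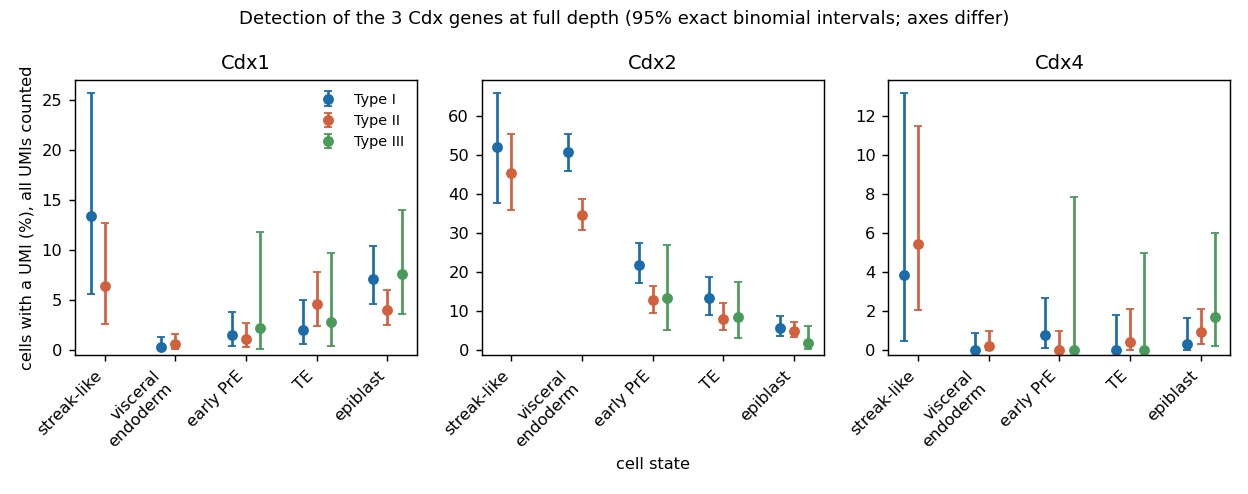
Share of cells with a UMI of Cdx1, Cdx2 or Cdx4 (y axes, percent, on scales that differ between panels) counting all UMIs of a cell, by state (x axis) and library, for groups of at least 20 cells, with exact 95% binomial bars. Cdx2 is highest in streak-like cells and visceral endoderm, Cdx1 is found in epiblast and streak-like cells but in at most 0.533% of visceral endoderm, and Cdx4 is highest, among the 5 states, in streak-like cells with 3.85% and 5.455%.

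Of the cells with Cdx4, 9 of 11 in Type I (81.8%) and 10 of 16 in Type II (62.5%) also had Cdx2, against 26.8% and 17.7% of the cells without Cdx4. These cells held 30 of the 32 and 25 of the 31 Cdx4 UMIs. The pairing was also seen among streak-like cells and cells of no state: 2 of 2 and 5 of 6 Cdx4-positive streak-like cells and 6 of 6 and 3 of 3 Cdx4-positive cells of no state had Cdx2, where the product of the single shares would give 1.04, 2.73, 1.585 and 0.429 cells. Elsewhere in Type I, Cdx2 was in 1 of 2 early PrE and 0 of 1 epiblast cells with Cdx4. In Type II it was in 1 of 5 epiblast, 0 of 1 visceral endoderm and 1 of 1 TE cells with Cdx4. All UMIs were used, and the part of depth was not tested. In Type III neither Cdx4 cell had Cdx2, and both were epiblast cells that had Cdx1. Cdx1 and Cdx2 met in 6 of 52 and 3 of 110 streak-like cells, where the product of shares gives 3.635 and 3.18 cells. Over all deep cells of Types I and II they met in 10 and 5, against products of 11.15 and 9.37. After thinning Cdx1 and Cdx2 met in 1 streak-like cell of Type I, where the product gives 0.615, so no group is singled out. These counts are small and carry no test.

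Cells that met no state rule were also rich in Cdx2, which was noticed after the values were seen. They had it in 20 of 106 cells of Type I (18.9%, 11.9% to 27.6%) and 15 of 133 of Type II (11.3%, 6.45% to 17.9%), at 32.1 and 21.1 CPM, and in none of 12 of Type III after thinning. At full depth 2 of these 12 cells held 17 Cdx2 UMIs, 15 of them in 1 cell. The cells of no state are mixed: their markers of blood or endothelium summed to 118 CPM in Type I and 32.3 CPM in Type II, against at most 6.30 CPM in the 5 states of these libraries. Markers of the 2-cell-like state summed to 73.6 and 4.51 CPM, against at most 5.42 CPM in the 5 states, so that they stood out in Type I and not in Type II. In Type I both lists were lower in the cells of no state with Cdx2 than in those without, at 28.6 against 150 CPM and 0 against 100 CPM.

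Hox genes encode the homeodomain factors that set position along the body axis and are known targets of Cdx. All 39 listed Hox genes were measured but no Hox gene reached 20 CPM in any of the 5 states in both Type I and Type II, so they are given as a sum. Summed Hox levels were 78.85 and 105.5 CPM in streak-like cells of Types I and II, 62.1 and 71.6 CPM in visceral endoderm, 75.6 and 64.5 CPM in early PrE, 41.9 and 37.1 CPM in TE and 10.7 and 12.9 CPM in epiblast cells.

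In TE cells, Hox RNA stood where Cdx2 stood. TE cells were divided by whether any of their UMIs was Cdx2, with the other genes thinned. In Type I, 27 positive cells had 156 CPM of summed Hox genes (112 to 210) and 176 negative cells 24.4 CPM (17.7 to 32.9). In Type II, 21 positive cells had 167 CPM (116 to 232) and 243 negative cells 25.9 CPM (19.9 to 33.2). Positive cells were thus 6.37 and 6.43 times higher, with intervals that do not meet, at like median depths of 45790 and 49219 UMIs in Type I and 43563 and 41791 in Type II. The leading Hox genes were not the same in both: Hoxa7, Hoxb8 and Hoxc8 led in the positive cells of Type I with 5, 4 and 4 UMIs, and Hoxd9 and Hoxc9 in those of Type II with 10 and 4. Type III had 6 positive TE cells, too few to compare.

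The same cells had a lower summed level of TE markers. The 8 TE markers that the rule did not use, which include Gata2 and Gata3 (trophoblast transcription factors), Cldn4 (a tight junction claudin) and Sfn (an epithelial 14-3-3 protein), summed to 333 CPM in Cdx2-positive and 797 CPM in Cdx2-negative TE cells of Type I, and to 452 against 869 CPM in Type II. Gata2 was 51.9 against 336 CPM in Type I and 95.2 against 290.5 CPM in Type II. The longer list of 17 trophoblast genes differed less. It summed to 763 against 795 CPM in Type I and 700 against 842 CPM in Type II, with overlapping intervals in both. Epiblast markers were also lower in the positive cells, at 352 against 631 CPM and 752 against 1054 CPM.

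**Figure D5:**
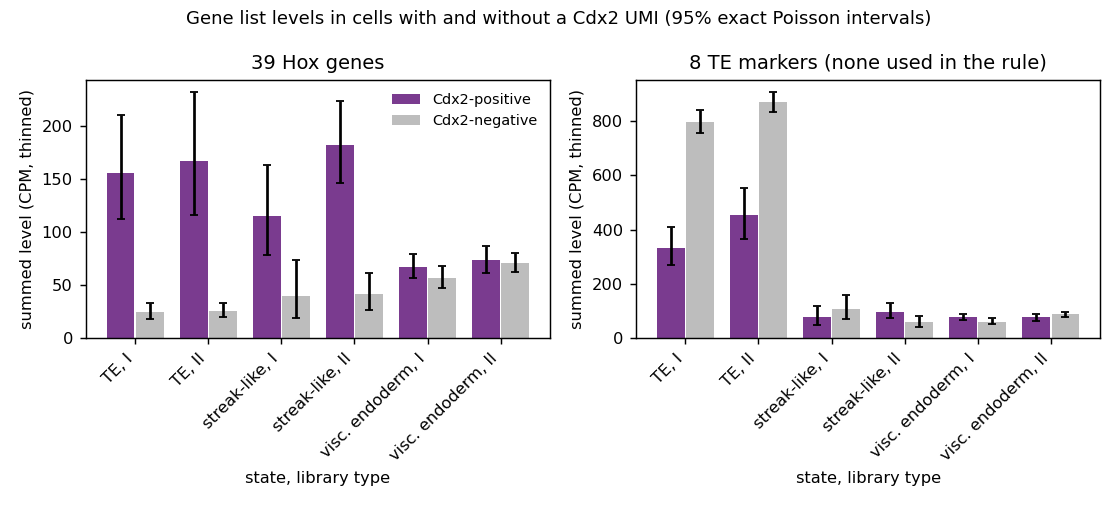
Summed level in CPM (y axes, from 0) of the 39 Hox genes and of the 8 TE markers in cells with and without a Cdx2 UMI, by state and library type (x axis), with exact 95% Poisson bars. In TE cells the Hox sum is 156 against 24.4 CPM and 167 against 25.9 CPM and the TE marker sum is lower in the positive cells, while in visceral endoderm the Hox sums lie between 56.9 and 73.3 CPM.

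The 5 genes with the largest ratios in Cdx2-positive TE cells that held in both libraries were Wnt5a, Tgfb2, Msx1, Bmp4 and Ifitm1. Wnt5a, a ligand of noncanonical Wnt signalling active in posterior tissue, was 59.3 against 1.705 CPM in Type I and 61.9 against 2.47 CPM in Type II. Tgfb2, a TGF-beta ligand, was 200 against 11.4 CPM and 114 against 14.0 CPM. Msx1, a homeobox gene that responds to BMP, was 111 against 13.6 CPM and 66.7 against 7.41 CPM. Bmp4 was 104 against 15.3 CPM and 129 against 18.5 CPM, and Ifitm1, an interferon-induced membrane protein gene found in the streak, 415 against 82.95 CPM and 238 against 64.2 CPM. Fgf8, a ligand that is 1 of the 2 genes of the streak rule, was 37.0 against 2.27 CPM and 85.7 against 6.58 CPM. Markers of the streak-like state that the rule did not use summed to 18.5 against 11.4 CPM and 33.3 against 5.76 CPM. These sums rest on only 5 and 7 UMIs in the positive cells. Their intervals overlap in Type I (6.01 to 43.2 and 6.94 to 17.55) and do not meet in Type II (13.4 to 68.7 and 3.15 to 9.67). The list of 18 streak and nascent mesoderm genes summed to 70.4 against 32.95 CPM and 61.9 against 55.6 CPM, with overlapping intervals in both. What part cells of another state that meet the keratin rule have in these differences was not tested.

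Divided the other way, by their summed Hox UMIs, TE cells with 3 or more had Cdx2 after thinning in 8 of 32 cells of Type I (25%, 11.5% to 43.4%) and 7 of 45 of Type II (15.6%, 6.49% to 29.5%). TE cells with fewer had it in 8 of 171 (4.68%, 2.04% to 9.01%) and 4 of 219 (1.83%, 0.500% to 4.61%). In Type II the latter share lies inside the epiblast interval of 0.630% to 2.85%. Type III went the other way, with 0 of 17 against 3 of 55 cells, and its cell with 21 Cdx2 UMIs had fewer than 3 Hox UMIs. The TE Cdx2 of Types I and II thus lay for 65.9% and 78.8% of its UMIs in the 15.8% and 17.0% of TE cells with 3 or more Hox UMIs, and that of Type III for 13.3%. TE cells had first been divided by their UMIs of Hand1, Msx1, Wnt5a and Hoxd9, genes picked from the Cdx2-positive TE cells themselves. By that division cells with 3 or more such UMIs held 81.75% and 72.9% of the TE Cdx2 of Types I and II, and 86.7% of that of Type III, where the division by Hox genes gave the opposite. The Type III result thus depends on the division, and rests on 6 positive cells.

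Streak-like cells also had more Hox RNA when Cdx2 was present. Summed Hox genes were 115 CPM in 27 positive and 40 CPM in 25 negative cells of Type I (intervals 78.01 to 163 and 19.2 to 73.6), and 182 CPM in 50 positive and 41.7 CPM in 60 negative cells of Type II (146.5 to 223.5 and 27.0 to 61.5). Hoxd9, of the posterior part of the HoxD cluster, led in both with 40.7 against 8 CPM and 28 against 3.33 CPM. By the thinned share the 2 libraries differed: Cdx2 was found in 20 of 42 cells with 3 or more Hox UMIs and 7 of 68 with fewer in Type II (47.6% and 10.3%), but in 6 of 20 and 10 of 32 in Type I (30% and 31.25%). Median depths of positive and negative cells were 65822 and 53747 UMIs in Type I and 41098 and 43144 in Type II, and the part of depth in this difference was not tested.

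The genes that led in Cdx2-positive streak-like cells of both libraries, when all Cdx2 UMIs were used, were Pgam2, Sct, Pwwp3b, Lgals3 and Uba3. Pgam2, the muscle form of a glycolytic mutase, was 66.7 against 8 CPM and 172 against 10 CPM, and Sct, the gene of the peptide hormone secretin, 55.6 against 12 CPM and 54 against 6.67 CPM. With thinned Cdx2 UMIs, where Type II alone had enough cells, Pgam2 and Sct again led, followed by Arg1, Hand1 and Frmd4b. With another thinning seed Pgam2, Sct and Hand1 were again among the 5 leading genes, and Arg1 and Frmd4b were not. In Type I the positive streak-like cells also carried visceral endoderm RNA, with the 7 markers of that state at 1122 CPM against 36 CPM in negative cells, where 5 of 52 streak-like cells met the carrier rule. In Type II, where no streak-like cell met it, the same markers were 104 against 107 CPM. Without the streak-like cells that met an endoderm or TE rule the Cdx2 share over libraries was 28.35% ± 4.74 (SD, n = 2) against 27.7% ± 4.40.

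Visceral endoderm cells showed no such link. Summed Hox genes were 67.1 CPM in 222 Cdx2-positive and 56.9 CPM in 216 negative cells of Type I, and 73.3 CPM in 195 positive and 70.7 CPM in 368 negative cells of Type II, with intervals that overlap in both libraries. Positive cells were deeper here, with medians of 60582 against 49136 and 45849 against 38768 UMIs. Visceral endoderm cells with 3 or more Hox UMIs had Cdx2 in 18.5% and 11.9% of cells and those with fewer in 19.0% and 13.9%. This division, made on all UMIs, also divided the cells by depth, with medians of 64510 against 40081 and 49186 against 35248 UMIs. In TE cells the medians were close, at 49594 against 48619 and 41912 against 41791 UMIs. The part of depth in the visceral endoderm result was not tested. Hoxa7 led among the Hox genes of visceral endoderm in both libraries with 15.5 and 16.3 CPM. The 5 leading genes after a thinned split (Spp2, Tut4, Cd24a, Mrps12 and Cpm) were at most 2.20-fold higher, and none of them was among the 5 with another thinning seed, so no gene is put forward for this state. In early PrE the 5 leading genes (Peg10, Nrk, Asf1a, Id2 and Epas1) were 1.72- to 2.09-fold higher, and Hox sums were 76.3 against 75.4 CPM and 91.5 against 60.6 CPM. The 5 genes led among 2356 compared, from 59 and 47 positive cells, and whether they lead with another thinning seed was not tested.

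Cells of no state with Cdx2, which could be compared in Type I alone, had the highest Hox level of all groups compared there. Their summed Hox genes were 407 CPM in 28 positive and 79.5 CPM in 78 negative cells. Hoxd9 was 60.7 against 5.13 CPM, Crabp1, a retinoic acid binding protein gene, 75 against 3.85 CPM, and Hand1, a gene of extraembryonic mesoderm and trophoblast, 82.1 against 7.69 CPM.

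In epiblast cells with Cdx1 at full depth, the 5 leading genes (Rab24, Pttg1ip, Cnot9, Ecd and Nsmce3) were 1.66- to 2.13-fold higher than in cells without it in Types I and II, and the sum of 8 epiblast markers was 4992 against 4979 CPM and 5923 against 5022 CPM. These genes led among 2041 compared, from only 24 and 22 positive cells. Whether they lead with another thinning seed was not tested, so none is put forward. The positive cells were deeper, with medians of 68337 and 50806 UMIs against 56060 and 46492. Summed Hox genes were 8.33 against 10.9 CPM and 27.3 against 12.3 CPM, so the 2 libraries went opposite ways.

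The genes known to act on Cdx were compared between states by summed counts. A gene was called higher or lower when it was at least 2-fold different in every library with at least 20 cells of both states, with 5 CPM added, and reached 20 CPM in 1 of the states in each. A gene could thus enter only through the state where it was high, among listed and all tested genes alike. In streak-like over epiblast cells 4.27% of all tested genes were called higher and 2.38% lower. Of 20 Wnt and Fgf genes listed, 10 reached the minimum, 5 were called higher and 1 lower, and their median log2 ratio was 1.16 against 0.09 over all tested genes. Of the genes named next, Rspo3, Wnt5a and Sp5 reached the minimum only through streak-like cells and Fgf4 only through epiblast cells. The counts and the median therefore depend on this filter. Rspo3, which strengthens Wnt signalling, was 190 and 272 CPM against 0.893 and 3.64 CPM, Wnt5a 59.6 and 57.3 CPM against 1.79 and 1.45 CPM, and Sp5, a Wnt target that encodes a repressor, 30.8 and 40.9 CPM against 5.655 and 7.27 CPM. Fgf4, a ligand made by the epiblast, was lower with 3.85 and 9.09 CPM against 50 and 58.2 CPM.

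Of 18 listed genes of streak and nascent mesoderm, 5 reached the minimum, some of them only through their level in streak-like cells, and were called higher there. These were Mesp1, Hand1, Lefty2, Evx1 and Eomes, with Mesp1, a regulator of early mesoderm, at 46.2 and 58.2 CPM against 0 and 0.545 CPM. Of 15 retinoic acid genes 3 reached the minimum and Cyp26a1, which breaks down retinoic acid, was called higher at 21.2 and 20 CPM against 1.79 and 1.27 CPM. Of 13 measured pluripotency genes 8 of the 11 tested were called lower, led by Klf2 and Dppa3. Genes of the intestine and of blood and vessel did not reach the minimum in this comparison.

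In TE over epiblast cells 8.17% of genes were called higher and 1.92% lower. Of 17 trophoblast genes 11 were tested, 5 called higher (Gata2, Hand1, Gata3, Ascl2 and Id2) and 2 lower (Sox2 and Esrrb). A pair of genes known to act with Cdx2 in trophoblast stem cells were near 0 in TE cells: Eomes was 0.493, 2.27 and 4.17 CPM and Elf5 was 0.493, 0 and 0 CPM in Types I, II and III, levels that rest on 1, 6 and 3 and on 1, 0 and 0 UMIs. Dkk1, a secreted Wnt antagonist, was 197, 179 and 157 CPM against 2.08, 1.82 and 0.847 CPM, and in Types I and II it was lower in Cdx2-positive than in Cdx2-negative TE cells, with 59.3 against 218 CPM and 76.2 against 188 CPM. With sums scaled by TMM, which moves log2 ratios over epiblast by -0.16 to -0.40, 208 genes of TE cells were called higher and 183 lower in place of 426 and 100. Shares of calls that are higher fell likewise from 64.2% to 47.1% in streak-like cells, from 77.2% to 56.9% in visceral endoderm and from 77.7% to 60.6% in early PrE. No listed gene reversed, and Pbx2 and Eomes in streak-like and Pbx2 and Id2 in TE cells lost their calls.

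In visceral endoderm over epiblast cells 19.7% of genes were called higher and 5.81% lower. The TCF factor gene Tcf7l2 was 102 and 85.3 CPM against 8.04 and 6.36 CPM, while Lef1, another TCF/LEF factor, was called lower at 0.685 and 0.178 CPM against 26.5 and 27.3 CPM. Of 19 listed genes of the intestine, a tissue in which Cdx2 acts, only 3 reached the minimum, and these were called higher. Among them Hnf4a, a transcription factor gene, was 31.5 and 34.3 CPM against 0.595 and 1.455 CPM. Vil1, which encodes the microvillus protein villin, was called higher at 21 and 25.9 CPM against 0.893 and 0.182 CPM. Both reached the minimum only through visceral endoderm, and both are also known from that tissue. Cyp26a1 was 80.1 and 85.8 CPM. In early PrE 12.5% of genes were called higher and 3.6% lower, and of the Wnt and Fgf genes Tcf7l2 and Dkk1 were called higher and Fgf4 lower.

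Across the 13 sums of state and library with at least 20 cells, the genes whose log2 level followed Cdx2 most closely included Med28, Elof1, Txn1 and Psmb2, of 6932 genes with at least 20 CPM in 1 sum. Pearson's r was 0.964 for Med28, 0.948 for Elof1 and Txn1 and 0.937 for Psmb2, a description over sums that share libraries and cells. All 4 varied little beside Cdx2: Med28 spanned 47.5 to 85.5 CPM, Elof1 48.5 to 88.5 CPM, Txn1, a gene of redox control, 790.5 to 1155 CPM, and Psmb2, a proteasome subunit gene, 164 to 288 CPM. Of these 4, Psmb2 was again among the 5 closest genes with a pseudocount of 1 CPM, and none was when cells of no state were added to give 15 sums. Cdx1 and Cdx4 did not reach 20 CPM in any sum, so no likeness is given for them.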

How the data were processed

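Single-cell 3' libraries (10x Chromium, kit v3.1 per the labels' protocols) were deposited by the authors as matrices of UMI counts. The file headers name Cell Ranger 6.0.1, and the submitters' processing notes name build mm10. How barcodes were called is not stated in the labels or headers. Barcodes that reached 10000 UMIs with no more than 20% mitochondrial were kept, assigned to states from all their UMIs, and thinned at random to 10000 UMIs (seed 1). No doublet caller was run. With 1 library per type, no test was made: states were compared by shares, CPM of summed counts and a 2-fold size rule with 5 CPM added and a minimum of 20 CPM. Cells with and without Cdx2 were compared only where both groups had at least 20 cells. The size rule was run on simulated counts that varied by counting error alone, with changes set only in genes at 50 CPM or more. That run therefore gives no error rate for the calls in these data. Named genes are the members, up to 4 called genes of a list, the 5 genes most like Cdx2 (mitochondrial, ribosomal, Xist, Y-linked and unnamed transcripts left out), and the 5 with the largest lowest ratio in Cdx2-positive cells at 50 CPM or more. Genes named beyond this, the divisions of cells by Cdx2, Hox, mesoderm genes and carrier level, and the cells of no state were chosen after values were seen. The members, lists and states were chosen with earlier results of these data known. Analyses used Python 3.11.15, numpy 2.4.6, scipy 1.17.1, and edgeR 4.0.16 for TMM factors alone. Gene positions are from GENCODE M21. Some genes that this rule names are not reported here.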

Additional observations from a re-analysis of the deposited data

Results flagged for a closer look

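Cdx RNA was also present in barcodes under the UMI minimum, which the report does not use. There Cdx2 was 16.6 CPM in Type I (interval 14.2 to 19.3), 9.16 CPM in Type II (7.69 to 10.8) and 5.98 CPM in Type III (3.54 to 9.45), beside 14.4, 10.8 and 3.68 CPM in the deep cells. Cdx1 was 0.590 CPM in Type I and 0.539 CPM in Type II, from 6 and 8 UMIs, and Cdx4 was 0.337 CPM in Type II, from 5 UMIs. These values lie above the level that a count of 0 would allow in each library.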

How the results depend on the processing

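Of 366 values of the 3 members compared with an alternative, 292 moved by less than 1 SD over libraries. The Cdx2 shares that moved further followed the depth: with minimum and thinning at 5000 UMIs they were 19.8% in streak-like cells, 5.435% in visceral endoderm (with Type III included) and 1.46% in early PrE, at 20000 UMIs 35.05%, 25.8%, 10.02% and 1.695% in streak-like, visceral endoderm, early PrE and epiblast cells, and without thinning 48.7%, 42.7%, 15.9%, 9.86% and 4.09% in streak-like, visceral endoderm, early PrE, TE and epiblast cells. With states set from thinned counts streak-like cells had 35.85% and visceral endoderm 10.45%, with at most 10% mitochondrial UMIs epiblast cells had 1.86%, and early PrE cells that met 1 rule only had 3.285%. Visceral endoderm gave no value there, having under 20 such cells. Leaving out each library kept Cdx2 shares within 1 SD, but this outcome was fixed in advance. With 2 or 3 libraries, the mean without 1 of them always lies within the SD over all of them. Such values of the 3 members are among the 292 above, so that count overstates how stable the values are. Early PrE was above TE in 6 of the 11 alternatives that gave all 5 states. Without Type II, 410 genes were called higher and 208 lower in streak-like over epiblast cells, in place of 210 and 117. With no minimum CPM these were 323 and 197, and lower calls were 524 in visceral endoderm and 297 in early PrE in place of 331 and 189. With TMM they were 572 and 296. Counts of listed genes changed by at most 3. No paired analysis was possible because each type has 1 library and no test was made. Precision is limited by streak-like cells (6 in Type III) and by Cdx4, with 3, 7 and 0 cells after thinning.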
